A study of Homo sapiens with 8 samples.

Results

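Aminoacyl-tRNA synthetases are the enzymes that join each amino acid to its tRNA, the step that fixes the meaning of the genetic code. The genes were taken by symbol: a letter for the amino acid followed by ARS, with or without 1 or 2, together with FARSA, FARSB and EPRS1. The rule found 37 of the 19414 coding genes listed, of which 20 encode cytosolic enzymes and 17, whose symbols end in 2, mitochondrial ones. As background, GARS1 and KARS1 each encode both forms, and 8 of the cytosolic enzymes sit in the multi-synthetase complex held together by the scaffold proteins AIMP1, AIMP2 and EEF1E1. Most of these genes are housekeeping genes, and several cytosolic ones are known targets of ATF4, the transcription factor of the amino acid response, while MYC is known for raising genes of protein synthesis.

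The RNA came from U2OS, a human osteosarcoma cell line, and had been labelled with 4-thiouridine, a uridine analogue taken into transcripts as they are made. TT-seq thus reads new transcripts rather than the standing pool. There were 2 libraries in each of 4 groups: WT, Zab, MYC O/E (MYC overexpression, here MYC) and Zab + MYC O/E (here MYC_Zab). The design text writes Zab as Zαβ, a name used, as background, for the tandem Z-form-binding domains of ADAR, an adenosine deaminase that edits RNA, but the labels give neither the construct nor the vector, the induction or whether a line is a clone. The labels do not say whether the 2 libraries of a group stem from different cultures, and p-values then measure no more than the spread of these libraries, which can be technical.

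The levels of MYC and ADAR were read first, as a check of the labels. MYC, in CPM (counts per 1e+06 after scaling between libraries), was at 6578 and 6606 under the label MYC, 776 and 752 under WT and 917 and 1015 under Zab. Under the label MYC_Zab it was at 752 and 772, which goes against that label. ADAR was high under WT (33914 and 33898 CPM) and MYC_Zab (32282 and 32341 CPM) and low under Zab (519 and 567 CPM) and MYC (445 and 464 CPM). Over all genes the libraries labelled MYC_Zab also lay close to WT: a chi-square per gene was 2.705 to 2.814 between these groups, 1.989 to 2.049 between replicates and 25.51 to 43.02 between other groups. Labels may thus have been exchanged between groups, WT and Zab included, which would change what each comparison and the interaction compare, and no value here settles it. Groups are named below as labelled, and a direction "over WT" is over libraries high in ADAR reads. Libraries held 1839960 to 4072059 recovered reads in coding exons, and those labelled Zab held 6.44 and 6.66 such reads per 100 tags against 13.1 to 13.8 elsewhere. Most low recovered values were even (77.2% to 82.7% by library), as when 1 fragment counts as 2 reads. A chi-square near 2 between replicates can then be sampling alone. Of 6 markers of U2OS, VIM, SPARC and COL1A1 were high in every library and COL1A2 never passed 2 reads, with a summed level that was lowest in MYC (2354 to 2395 CPM), then MYC_Zab (3044 to 3117), WT (3258 to 3359.5) and Zab (3769.8 to 3968), an order set mostly by VIM. RUNX2 ran the other way, with a mean of 31.4 CPM in MYC, 11.5 in MYC_Zab, 8.62 in WT and 3.41 in Zab, and CDH11 averaged 2.30 CPM in MYC, 7.66 in Zab, 13.0 in WT and 14.7 in MYC_Zab. The part of these differences in the results below was not tested. The 9 markers of other cells summed to at most 5.93 CPM, with CD3E at 0.

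Promoters of 30 of the 37 genes were found in RefSeq (GRCh38.p14), as windows of 300 bases from 250 before the start. They are shown for 5 of the genes named below, all of which hold a motif match. Matches are in capitals, to the E-box CACGTG, which MYC binds with MAX, or to the C/EBP-ATF element TGATGNAA, which ATF4 binds. Both were searched on both strands. Other genes that lead results below, WARS1, FARSA, LARS2, SARS2, QARS1, SARS1, IARS2 and EPRS1, had no match in any window. The windows not shown of CARS2, CARS1 and TARS1 held no match either. The E-box lay at -11 in MARS2 (chr2:197705119-197705418, plus strand) and at -3 in the window of 1 of the 2 starts of CARS2 (chr13:110706466-110706765, minus strand), counting the start as 0. The C/EBP-ATF element lay at -187 in AARS1 (chr16:70289457-70289756, minus strand), at -2 in 1 of 2 windows of CARS1 (chr11:3057374-3057673, minus strand) and at 2 in 1 of 2 windows of TARS1 (chr5:33440715-33441014, plus strand).
MARS2: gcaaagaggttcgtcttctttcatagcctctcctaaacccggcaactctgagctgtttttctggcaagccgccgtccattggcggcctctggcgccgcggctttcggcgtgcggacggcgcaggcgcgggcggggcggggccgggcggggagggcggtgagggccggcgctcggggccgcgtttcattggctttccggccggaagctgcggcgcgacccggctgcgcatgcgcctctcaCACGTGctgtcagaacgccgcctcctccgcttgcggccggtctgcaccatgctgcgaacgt
CARS2: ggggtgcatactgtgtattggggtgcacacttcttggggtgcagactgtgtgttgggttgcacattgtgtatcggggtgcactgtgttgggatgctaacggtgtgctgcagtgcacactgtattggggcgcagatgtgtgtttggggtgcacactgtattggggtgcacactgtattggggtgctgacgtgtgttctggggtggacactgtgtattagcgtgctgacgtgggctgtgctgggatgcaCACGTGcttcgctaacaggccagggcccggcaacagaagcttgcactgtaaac
AARS1: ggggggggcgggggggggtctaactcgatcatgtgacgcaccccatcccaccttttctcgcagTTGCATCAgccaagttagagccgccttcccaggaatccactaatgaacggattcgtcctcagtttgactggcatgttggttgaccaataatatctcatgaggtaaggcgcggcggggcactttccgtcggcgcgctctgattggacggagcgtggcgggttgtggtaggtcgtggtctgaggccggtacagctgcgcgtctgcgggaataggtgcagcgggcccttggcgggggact
CARS1: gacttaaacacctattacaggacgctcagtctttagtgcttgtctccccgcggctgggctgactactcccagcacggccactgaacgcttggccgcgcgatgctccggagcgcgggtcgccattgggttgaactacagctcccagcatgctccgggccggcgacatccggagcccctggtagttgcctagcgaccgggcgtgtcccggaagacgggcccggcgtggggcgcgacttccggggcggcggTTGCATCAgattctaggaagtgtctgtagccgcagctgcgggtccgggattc
TARS1: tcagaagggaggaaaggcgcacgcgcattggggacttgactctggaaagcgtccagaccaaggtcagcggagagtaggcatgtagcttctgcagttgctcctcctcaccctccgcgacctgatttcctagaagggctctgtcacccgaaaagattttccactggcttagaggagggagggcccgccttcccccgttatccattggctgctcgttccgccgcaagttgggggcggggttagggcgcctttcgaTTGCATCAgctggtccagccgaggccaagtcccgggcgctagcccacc

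An E-box was in a window of 4 of the 30 genes (CARS2, EARS2, IARS1 and MARS2), or 13.3%, against 8.77% of all 27305 genes with a window. The C/EBP-ATF element was in a window of 8 (AARS1, CARS1, GARS1, IARS1, MARS1, NARS1, TARS1 and YARS2), or 26.7%, against 4.46% of all genes. These matches describe the letters only. The 8 genes with the C/EBP-ATF element include 7 cytosolic enzymes and the mitochondrial YARS2.

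All 37 genes passed the filter on low reads, in a fit over 11985 genes. Per kb of counted exon, cytosolic genes were the higher ones: in WT their median was 86.9 CPM per kb against 11.5 for the mitochondrial genes. GARS1, for glycine, stood highest in WT at 215.1 and 210.7 CPM per kb, followed by TARS1 at 181 and 187, whose ranges did not overlap that of GARS1. KARS1 and SARS1 came next, with ranges that overlapped each other and that of TARS1. CARS2, for mitochondrial cysteine, stood lowest at 5.39 and 6.52, next to WARS2 at 10.2 and 6.78. The highest mitochondrial gene in every group was IARS2, at 36.5 CPM per kb in WT, and the lowest cytosolic gene was FARSB, at 18.8. Summed over all 37, Zab stood highest at 6777 ± 36.4 CPM, then WT at 6564 ± 58.6, MYC at 6389 ± 65.3 and MYC_Zab at 6201 ± 12.7 (SD, n = 2). That order rests on the scaling, since Zab stood lowest with library totals, at 6209 ± 89.1 CPM, then MYC at 6360 ± 44.6, MYC_Zab at 6575 ± 12.6 and WT at 6789 ± 68.4, and on the deposited scale Zab was also lowest and MYC highest. The 17 mitochondrial genes summed to 832 ± 3.03 CPM in MYC, above the 728 ± 24.6 of WT, 742 ± 38.8 of Zab and 712 ± 35.0 of MYC_Zab, and was highest in MYC on both other scales too.

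**Figure D1:**
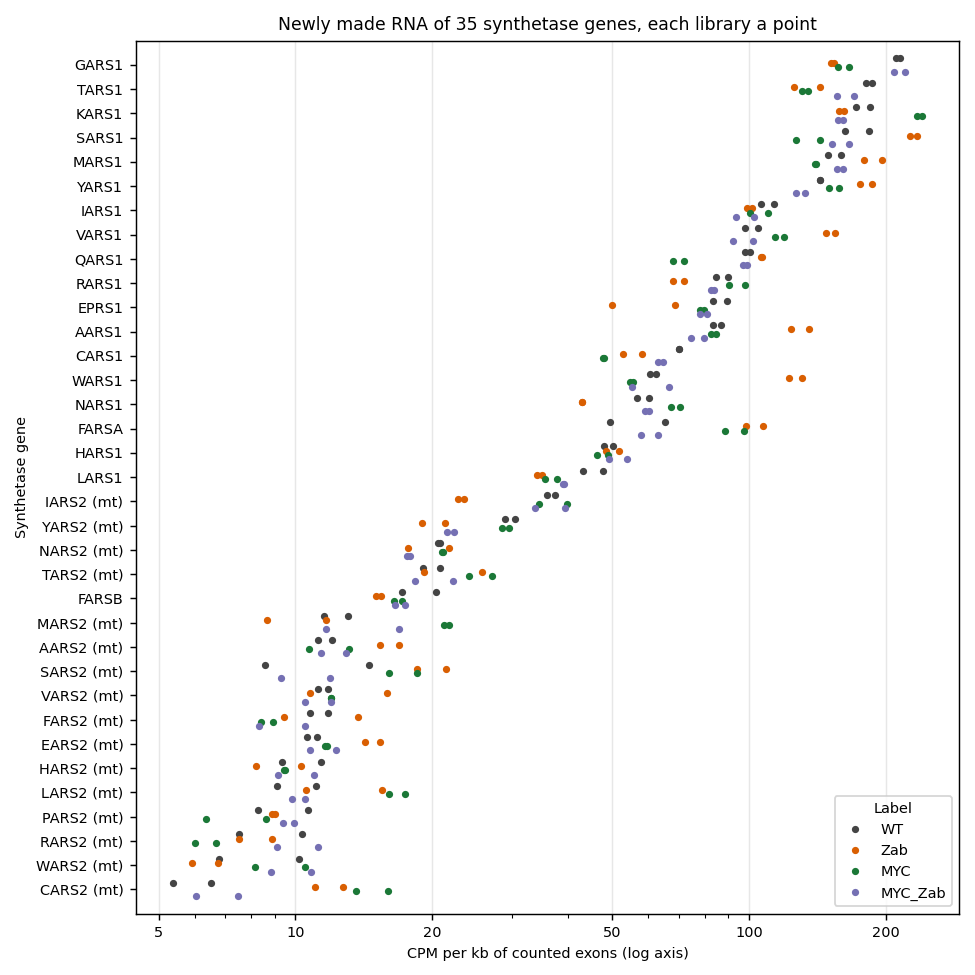
Level of newly made RNA of 35 synthetase genes in CPM per kb of counted exons (log axis), with each of the 8 libraries as a point, coloured by label; mt marks mitochondrial enzymes. Cytosolic genes fill the upper levels, up to GARS1 at 213 CPM per kb in WT, and CARS2 is lowest there at 5.95.

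The first comparison asked how the libraries labelled MYC differed from WT. Of the 37 genes, 8 rose and 6 fell at an adjusted p under 0.05 in limma, or 37.8%, where 44.1% of all genes tested were called (22.2% higher and 21.9% lower), so the share called was no higher than over all genes. The median log2 change was 0.02 for the 37 and -0.01 over all genes. Of the 20 cytosolic genes 4 rose and 6 fell, with a median of -0.10, and of the 17 mitochondrial genes 4 rose and 0 fell, with a median of 0.06, and 5 at an unadjusted p under 0.05. In these bulk libraries fewer cells making a transcript and less RNA per cell cannot be told apart. These splits depend on the scale, since with library totals 6 were higher and 7 lower, and on the deposited scale, where all genes shift by a median of 0.47, 29 were higher and 0 lower.

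The rises were led by CARS2 (hg19 chr13:111293757-111358862), which charges mitochondrial tRNA with cysteine. It had few recovered reads, 32 and 33 in WT and 112 and 106 in MYC. CARS2 was at 10.4 and 11.8 CPM in WT and at 28.9 and 26.2 in MYC, a log2 change of 1.24 ± 0.26 (SE, n = 2 a group, adjusted p = 0.000326) and a ratio of means of 2.49. MARS2, the mitochondrial methionine enzyme from a gene whose counted exon fills its whole span (hg19 chr2:198570093-198573119), was at 39.5 and 35.0 CPM in WT and 64.3 and 66.0 in MYC, a log2 change of 0.79 ± 0.19 (adjusted p = 0.0013). LARS2, for mitochondrial leucine, was at 43.1 and 52.6 CPM in WT and 81.6 and 76.2 in MYC (0.72 ± 0.17, adjusted p = 0.000965). In these 3 mitochondrial genes both MYC libraries lay above both WT libraries, which the rule for naming them required. FARSA, the catalytic subunit of the cytosolic phenylalanine enzyme (hg19 chr19:13033293-13044525), was at 88.1 and 117 CPM in WT and 174 and 158 in MYC, a log2 change of 0.70 ± 0.11 (adjusted p = 1.01e-05). Its partner subunit FARSB did not pass the test, at -0.15 ± 0.11. SARS2, for mitochondrial serine, was at 16.2 and 27.5 CPM in WT and 30.5 and 35.1 in MYC, a log2 change of 0.61 that lost its call when any of 3 libraries was left out: without WT replicate 1 it was 0.26 (adjusted p = 0.483), without MYC replicate 1 it was 0.70 (adjusted p = 0.0915) and without MYC replicate 2 it was 0.51 (adjusted p = 0.235).

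KARS1, the lysine enzyme of both compartments, was at 399.9 and 373 CPM in WT and 507 and 521 in MYC, a log2 change of 0.41 ± 0.061 (adjusted p = 3.05e-06), and had the highest level per kb in MYC at 237.5. NARS1, for asparagine, and VARS1, for valine, rose by less, by 0.24 and 0.20. The call for NARS1 was lost without either library of WT or MYC (adjusted p from 0.0556 to 0.187). VARS1 was not called once the second WT library was left out (0.16, adjusted p = 0.117) or the second MYC library (0.17, adjusted p = 0.106). Without MYC replicate 2 the count of rises was 5, not 8.

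The called falls were all in cytosolic enzymes, which mostly had smaller SEs than the mitochondrial ones. The lowest mitochondrial log2 change, -0.40, was not called, though it was further down than the called falls of GARS1, SARS1 and LARS1 given below. CARS1, the cytosolic partner of CARS2 (hg19 chr11:3022159-3078653), fell the most, from 189 in both WT libraries to 129.6 and 128 CPM in MYC (-0.55 ± 0.09, adjusted p = 1.34e-05). QARS1, for glutamine, was at 235 and 241 CPM in WT and 164 and 170.1 in MYC (-0.51 ± 0.076, adjusted p = 3.21e-06). TARS1, for threonine, was at 531 and 497 CPM in WT and 395 and 384 in MYC, a log2 change of -0.40 ± 0.064. GARS1 was at 517 and 536 CPM in WT and 401 and 423 in MYC, a log2 change of -0.35 ± 0.056. SARS1, for serine, was at 348 and 322 CPM in WT and 251 and 285 in MYC (-0.32 ± 0.071). In each of these 5 genes both MYC libraries lay below both WT libraries, which the rule for naming them required. LARS1, the cytosolic leucine enzyme, was also called at -0.30, but lost that call when the second library of WT (-0.23, adjusted p = 0.0893) or of MYC (-0.26, adjusted p = 0.0697) was left out. On the deposited scale the log2 changes of TARS1, GARS1, SARS1 and LARS1 turned positive, between 0.10 and 0.19, while those of CARS1 and QARS1 did not change sign.

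Cysteine, leucine and serine thus had a mitochondrial enzyme called higher and a cytosolic enzyme called lower in the same libraries. For leucine and serine the cytosolic one turns higher on the deposited scale. The calls of LARS1 and SARS2 were also lost when single libraries were left out, as given above. How often other pairs of genes were called in opposite directions was not counted. The change was not called for AARS1 (286 and 275 CPM in WT, 279 and 273 in MYC), EPRS1, WARS1 or MARS1. EPRS1 was at 381 and 375 CPM in MYC and at 387 and 375 in MYC_Zab. Of the 4 genes with an E-box match, MARS2 and CARS2 rose, and EARS2 (0.10) and IARS1 (-0.06) did not pass the test. Of the 8 with the C/EBP-ATF element, NARS1 rose, CARS1, TARS1 and GARS1 fell and 4 did not pass. In each of these sets 50% were called, near the 44.1% of all genes (22.2% higher and 21.9% lower). These counts are thus not read as a result about either motif.

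The comparison of the libraries labelled Zab with WT had more calls among the synthetases. Of the 37 genes, 11 rose and 12 fell, or 62.2%, where 49.6% of all genes were called (22.5% higher and 27.1% lower). The median log2 change was -0.06 for the 37 and -0.08 over all genes. Of the 20 cytosolic genes 7 rose and 10 fell, and of the 17 mitochondrial genes 4 rose and 2 fell. SEs were smaller for the cytosolic genes, from 0.056 to 0.12 against 0.11 to 0.26. In the multi-synthetase complex 1 of 8 members rose and 5 fell, with a median of -0.24, and of the 12 cytosolic genes outside it 6 rose and 5 fell, with a median of 0.18. With library totals 8 of the 37 were higher and 13 lower, and on the deposited scale, where all genes shift by a median of -0.63, 1 was higher and 25 lower. The libraries labelled Zab also had the lower share of coding reads given above, whose part in these differences was not tested.

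WARS1, the tryptophan enzyme and a known interferon-induced gene (hg19 chr14:100800127-100841684), led the rises. It was at 158 and 163 CPM in WT and 321 and 343 in Zab, a log2 change of 1.04 ± 0.09 (SE, n = 2 a group, adjusted p = 2.27e-10) and a ratio of means of 2.07. WARS1 stayed at 143 and 146 CPM in MYC and at 145 and 174 in MYC_Zab, so the Zab libraries stood above all the others. CARS2 was at 21.2 and 23.0 CPM in Zab, from 36 and 44 recovered reads (0.94 ± 0.26, adjusted p = 0.00419), and FARSA at 176 and 192 CPM (0.85 ± 0.11, adjusted p = 4.88e-07). AARS1, for alanine, was at 447 and 408 CPM in Zab against 286 and 275 in WT (0.60 ± 0.07, adjusted p = 4.53e-08). SARS2 was at 40.7 and 35.1 CPM in Zab, a log2 change of 0.81 that fell to 0.45 without WT replicate 1 (adjusted p = 0.182). VARS1 (0.57), SARS1 (0.45), YARS1 for tyrosine (0.33) and MARS1 for methionine (0.28) were also called higher, as were the mitochondrial AARS2 (0.47) and EARS2 (0.44). MARS1 was highest under the label Zab, at 541 and 494 CPM, followed by WT (441 and 412), MYC_Zab (430.01 and 443) and MYC (385 and 387). AARS1 was lowest in MYC_Zab, at 263 and 246 CPM. The calls of AARS2 and EARS2 were lost when WT replicate 2 was left out (adjusted p = 0.0768 and 0.0667), or Zab replicate 2 (adjusted p = 0.0552 and 0.0523). On the deposited scale the log2 changes of AARS1, AARS2, EARS2, MARS1, SARS1, VARS1 and YARS1 turned negative, whereas WARS1 stayed positive.

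The falls in Zab were led by IARS2, for mitochondrial isoleucine (hg19 chr1:220267474-220321383), at 129.9 and 125 CPM in WT and 81.9 and 79.6 in Zab (-0.65 ± 0.11, adjusted p = 2.01e-05). EPRS1, which joins glutamate and proline activities in 1 protein of the complex, was at 429.7 and 400.5 CPM in WT and 239.9 and 329 in Zab (-0.56 ± 0.088, adjusted p = 7.08e-06). YARS2, for mitochondrial tyrosine, was at 61.2 and 64.4 CPM in WT and 40.1 and 45.0 in Zab (-0.55 ± 0.15). TARS1 was at 380.2 and 333 CPM in Zab (-0.53 ± 0.064, adjusted p = 1.07e-07). In these 4 genes the groups did not overlap, which the rule for naming them required, with EPRS1 the most uneven between the Zab libraries.

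NARS1 (-0.44), GARS1 (-0.43), LARS1 (-0.39), CARS1 (-0.34), RARS1 for arginine (-0.32), FARSB (-0.30) and KARS1 (-0.16) were also called lower. GARS1 was at 387 and 392 CPM in Zab, below both WT libraries. KARS1 was at 350.2 and 341 CPM in Zab, and at 339 and 349 in MYC_Zab. FARSB and KARS1 were not called without WT replicate 1 (adjusted p = 0.313 and 0.281) or Zab replicate 2 (adjusted p = 0.0616 and 0.0834). The subunits of the phenylalanine enzyme were thus called in opposite directions, FARSA higher and FARSB lower. Of the 8 genes with the C/EBP-ATF element, AARS1 and MARS1 rose, while CARS1, GARS1, NARS1, TARS1 and YARS2 fell. IARS1, the complex's isoleucine enzyme, did not pass at -0.13 (adjusted p = 0.073). The share called of these 8 was 87.5%, beside 85% of all 20 cytosolic synthetases and 49.6% of all genes.

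**Figure D2:**
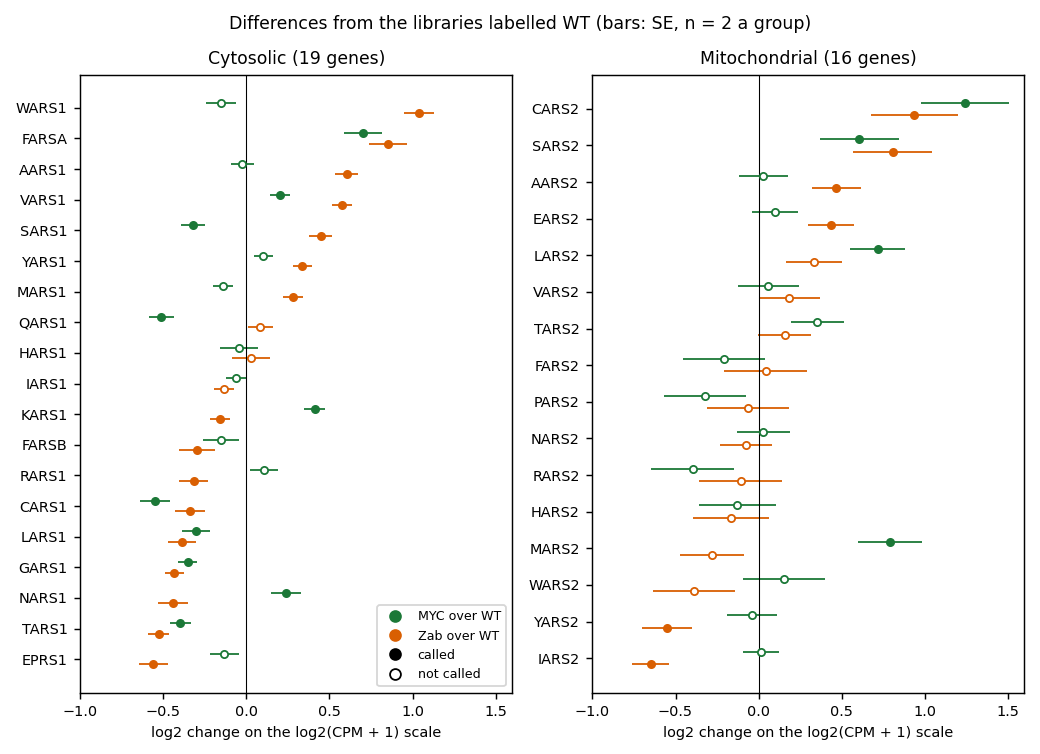
Log2 change of 35 synthetase genes from the libraries labelled WT, on the log2(CPM + 1) scale, in MYC and in Zab, cytosolic and mitochondrial genes apart; bars are the SE, n = 2 a group, and filled points were called at an adjusted p under 0.05. CARS2 at 1.24 is highest in MYC and WARS1 at 1.04 in Zab; on the deposited scale the called falls of GARS1, LARS1, SARS1 and TARS1 in MYC, and the called rises of AARS1, AARS2, EARS2, MARS1, SARS1, VARS1 and YARS1 in Zab, change sign.

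Both comparisons share the WT libraries, so the values are set side by side. TARS1, GARS1, CARS1 and LARS1 were called lower in each, and CARS2, FARSA, SARS2 and VARS1 higher in each. SARS1 was called lower in MYC and higher in Zab, and KARS1 and NARS1 higher in MYC and lower in Zab. The test of MYC over Zab sets no value against WT, though the WT libraries enter its estimate of the spread. It called 8 of the 37 higher and 9 lower, where 56.5% of all genes were called (30.6% higher and 25.9% lower), but 15 higher and 6 lower with library totals, and 36 higher and 0 lower on the deposited scale, where all genes shift by 1.113. It placed WARS1 lowest (-1.20 ± 0.09, adjusted p = 7.84e-12), then SARS1 (-0.77 ± 0.071) and AARS1 (-0.63 ± 0.07), of which SARS1 and AARS1 turned positive on the deposited scale. SARS1 was at 465 and 449 CPM in Zab, above both MYC libraries. MARS2 (1.07 ± 0.19) was highest, and NARS1 (0.68 ± 0.09) was also called. In that comparison MARS2 was at 35.4 and 26.2 CPM in Zab, and NARS1 at 117 in both Zab libraries and 193 and 184 in MYC. For CARS2 (0.30 ± 0.26), FARSA (-0.15 ± 0.11) and GARS1 (0.08 ± 0.056) the difference between MYC and Zab did not pass the test.

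The libraries labelled MYC_Zab, in which MYC was at the level of WT, had 0 synthetases called against WT by limma, with 6 of the 37 at an unadjusted p under 0.05, 0 by edgeR and 0 by DESeq2, where 0.576% of all genes were called. On the deposited scale 7 were higher and 0 lower. CARS2, for example, was at 13.5 and 10.9 CPM in MYC_Zab, FARSA at 103 and 112, WARS1 at 145 and 174, GARS1 at 531 and 530.0 and TARS1 at 457 and 453. In all of these genes but TARS1 the values overlapped those of WT.

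Against MYC, the libraries labelled MYC_Zab had 7 of the 37 called higher and 10 lower, where 44.6% of all genes were called (22% higher and 22.5% lower), or 1 higher and 17 lower on the deposited scale. CARS2 (-1.12), LARS2 (-0.70) and SARS2 (-0.69) were lowest, and RARS2 for mitochondrial arginine (0.64), QARS1 (0.48) and CARS1 (0.41) highest. The counts were 4 higher and 6 lower without either MYC replicate, and 4 higher without MYC_Zab replicate 2. RARS2 was not called without either MYC replicate (adjusted p = 0.0858 and 0.183) or either MYC_Zab replicate (adjusted p = 0.0577 and 0.269), nor SARS2 without either MYC replicate (adjusted p = 0.0584 and 0.163) or MYC_Zab replicate 2 (adjusted p = 0.191). Against Zab, 9 were higher and 12 lower, where 49.5% of all genes were called (26.8% higher and 22.6% lower), but 14 higher and 7 lower with library totals, and 31 higher and 0 lower on the deposited scale. WARS1 was lowest there (-1.06) and IARS2 highest (0.65).

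The interaction tests whether the Zab difference is the same with and without MYC overexpression, as labelled, and called 8 of the 37 higher and 10 lower, where 53.3% of all genes were called (29.3% higher and 24% lower). With library totals 13 were higher and 8 lower, and on the deposited scale 17 and 7. It was highest for GARS1 (0.80 ± 0.08, adjusted p = 2.51e-09), CARS1 (0.75 ± 0.13) and TARS1 (0.75 ± 0.09), each called lower in Zab over WT and higher in MYC_Zab over MYC. It was lowest for CARS2 (-2.06 ± 0.37, adjusted p = 3.78e-05), SARS2 (-1.49 ± 0.34) and FARSA (-1.47 ± 0.16), each called higher in Zab over WT and lower in MYC_Zab over MYC. CARS1 was at 142 and 156 CPM in Zab and at 170 and 174 in MYC_Zab, and SARS2 at 22.6 and 17.6 in MYC_Zab. Of these, TARS1 was not called in MYC_Zab over MYC without MYC replicate 2 (0.20, adjusted p = 0.0704), nor SARS2 in Zab over WT without WT replicate 1 (0.45, adjusted p = 0.182). Since MYC was not raised in the libraries labelled MYC_Zab, an interaction of MYC and Zab cannot be told apart from their likeness to WT.

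For 13 amino acids the mitochondrial and the cytosolic gene can be set against each other within a library, as a ratio of CPM per kb that no scaling of the library changes. The ratio of CARS2 to CARS1 was highest in MYC at 0.333 and 0.286, followed by Zab at 0.209 and 0.220, MYC_Zab at 0.118 and 0.0935 and WT at 0.0769 and 0.0928. The ratio of MARS2 to MARS1 was also highest in MYC at 0.152 and 0.155, followed by MYC_Zab at 0.0748 and 0.105, WT at 0.0817 and 0.0774 and Zab at 0.0596 and 0.0482. The cysteine pair was thus above both WT libraries in Zab and MYC, and narrowly in MYC_Zab too (0.0935 against 0.0928). The methionine pair was above in MYC alone, with Zab below WT. Over all 13 pairs, the ratio in MYC lay above both WT libraries in 5 and below both in 4 (NARS2, RARS2, VARS2 and YARS2 over their cytosolic partners), and overlapped in 4. In Zab it lay above in 4, below in 5 and overlapped in 4. In MYC_Zab, where 0 synthetases were called against WT, it still lay above in 3, below in 2 and overlapped in 8. Such counts were not made for other pairs of genes, so they are not read as a trait of these pairs. Of all genes tested, limma called 44.1% in MYC over WT and 49.6% in Zab over WT. Those shares count single genes that passed a test, which is another measure than ratios without overlap. The leucine pair moved as the cysteine pair did, at 0.211 and 0.233 in WT, 0.456 and 0.301 in Zab and 0.462 and 0.452 in MYC. In MYC_Zab it was at 0.269 and 0.253, also above both WT libraries. The tryptophan pair was lowest in Zab, at 0.0481 and 0.0515 against 0.169 and 0.109 in WT. The tyrosine pair was also lowest there, at 0.108 and 0.115 against 0.202 and 0.213. The ratios of the histidine pair overlapped between WT, Zab and MYC. With 2 libraries against 2, an exact permutation test cannot go below 0.333, so these ratios are a description.

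**Figure D3:**
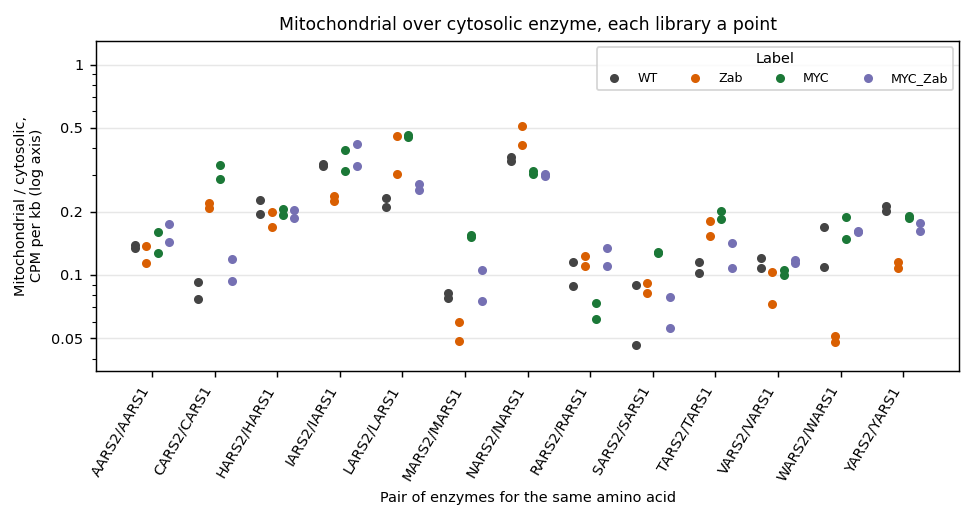
Ratio of the mitochondrial to the cytosolic gene, both in CPM per kb (log axis), for 13 amino acids, with each of the 8 libraries as a point, coloured by label. CARS2/CARS1 lies at 0.0769 and 0.0928 in WT and at 0.333 and 0.286 in MYC, and WARS2/WARS1 at 0.0481 and 0.0515 in Zab.

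HARS1 and HARS2, the cytosolic and mitochondrial histidine enzymes, lie head to head on chromosome 5 with their starts 85 bases apart (hg19 chr5:140053490-140070955, minus strand, and chr5:140071040-140078890, plus strand). HARS1 was at 92.4 and 96.5 CPM in WT, at 93.1 and 99.5 with Zab, at 88.8 and 94.0 with MYC, and at 103 and 94.3 in the libraries labelled MYC_Zab. In the same order, HARS2 was at 23.0 and 27.9, 20.04 and 25.1, 23.0 and 23.2, and 26.99 and 22.3 CPM. Neither gene was called in any of the 7 comparisons. Reads were counted by strand, which also bears on MARS1 and YARS1, the 2 genes that others overlap on the opposite strand: DDIT3 and ARHGAP9 for MARS1, and S100PBP for YARS1.

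The difference in Zab varied with the genomic span of genes over the whole table. Spearman's rho between the span and the log2 change in Zab over WT was -0.30 over all 11985 genes, which share the same libraries, and -0.19 over the 37. Of the 9 synthetases that span 50 to 100 kb, 1 rose (CARS2) and 6 fell (among them CARS1, EPRS1, FARSB, IARS2 and LARS1), with a median of -0.34 beside -0.28 for all genes of that span, of which 14.3% rose and 36.8% fell. Of the 12 between 20 and 50 kb, 6 rose and 4 fell, with a median of 0.23 beside -0.11 for all genes, of which 21.2% rose and 28.8% fell. Of the 12 under 20 kb, 4 rose and 2 fell, with a median of 0.06 beside 0.19 for all genes, of which 32.6% rose and 17.2% fell. The 4 over 100 kb, all mitochondrial (FARS2, LARS2, NARS2 and WARS2), had none called and a median of -0.02 beside -0.36 for all genes, of which 10.4% rose and 36.9% fell. Gene span was not tested as a part of the differences above.

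**Figure D4:**
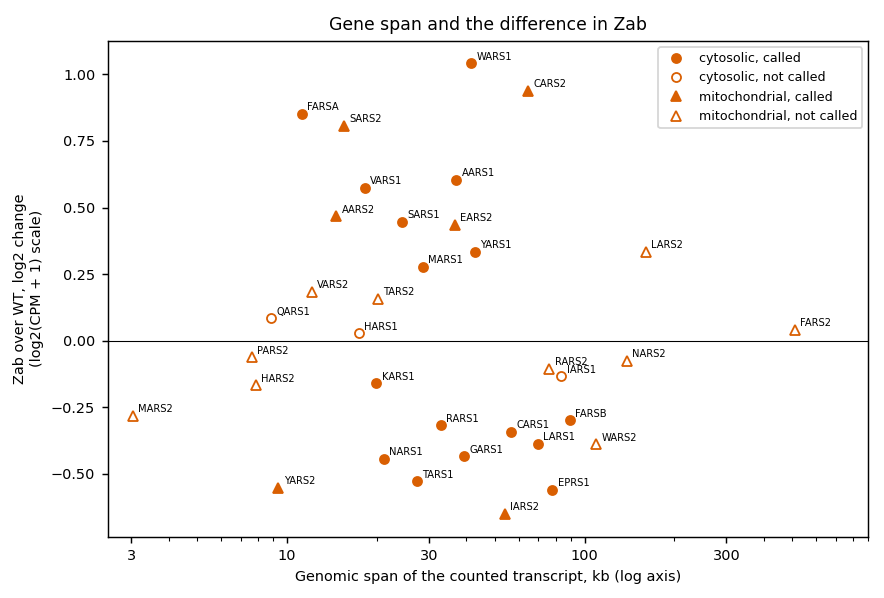
Log2 change in Zab over WT of 35 of the 37 synthetase genes, on the log2(CPM + 1) scale, against the genomic span of the counted transcript in kb (log axis); filled points were called. Of all 9 genes between 50 and 100 kb 6 were called lower, and on the deposited scale 1 of the 37 was called higher and 25 lower.

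Other genes of the pathway were taken as a list of 22 partners of aminoacylation, all of which were tested. In MYC over WT 7 of the 22 rose and 4 fell, with a median of 0.20, and in Zab over WT 5 rose and 7 fell, with a median of -0.03, but on the deposited scale 16 rose and 0 fell in MYC, and 1 rose and 15 fell in Zab. The shares called, 50% and 54.5%, were near the 44.1% and 49.6% of all genes. Without WT replicate 2 or either MYC replicate the rises were 4 in MYC and 3 in Zab. In Zab, 2 of the 3 scaffold proteins of the complex fell further than any synthetase. AIMP1 was at 45.4 and 49.3 CPM in WT and 17.7 and 20.9 in Zab (-1.25 ± 0.18, adjusted p = 2.13e-06). EEF1E1 was at 34.7 and 20.7 CPM in WT and 13.0 and 6.28 in Zab (-1.47 ± 0.28, adjusted p = 7.69e-05). The change in AIMP2, the third scaffold, did not pass the test at -0.03 ± 0.12. In MYC, QRSL1, a subunit of the amidotransferase that makes mitochondrial glutaminyl-tRNA, was at 28.5 and 20.4 CPM in WT and 45.7 and 43.0 in MYC (0.85 ± 0.22), and was not called without WT replicate 2 (0.62, adjusted p = 0.0623). ANKRD16, a cofactor of alanine proofreading, was called at 1.04 but not without WT replicate 2 (0.70, adjusted p = 0.222) or either MYC replicate (adjusted p = 0.138 and 0.0837). SEPSECS, the last enzyme of selenocysteinyl-tRNA, was called lower in MYC (-1.18) and in Zab (-1.41), at 10.05 and 6.44 CPM in WT, 2.58 and 3.46 in MYC and 3.54 and 1.57 in Zab. Without WT replicate 1 SEPSECS was not called in either (adjusted p = 0.261 and 0.135), nor in Zab without Zab replicate 2 (adjusted p = 0.0922), and in MYC it was lost without any 1 of the WT, MYC or MYC_Zab libraries (adjusted p from 0.0512 to 0.261).

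The amino acid response was taken as a list of 28 genes, all tested. In MYC over WT 14 rose and 6 fell, with a median of 0.26, and in Zab over WT 13 rose and 6 fell, with a median of 0.16, or 71.4% and 67.9% called, where 44.1% and 49.6% of all genes were. On the deposited scale 19 rose and 1 fell in MYC, and 7 rose and 15 fell in Zab. In MYC over WT the fall count was 3 without WT replicate 2 or MYC replicate 1. ATF4 itself rose in MYC, from 1144 and 1073 CPM to 1219 and 1243 (0.15 ± 0.042), and fell in Zab, to 733 and 757 (-0.57 ± 0.042). TRIB3, a pseudokinase induced by ATF4, was at 48.0 and 52.6 CPM in WT, 183 and 179 in Zab and 87.8 and 92.2 in MYC (1.83 ± 0.12 in Zab). ATF5 was at 41.5 and 42.5 CPM in WT, 136 and 116 in Zab and 115 and 131 in MYC (1.56 ± 0.13 in Zab and 1.52 ± 0.13 in MYC). DDIT3, which encodes the stress factor CHOP and overlaps MARS1 on the other strand, was at 10.4 and 9.30 CPM in WT, 34.2 and 39.3 in Zab and 9.04 and 5.93 in MYC. The leading rises in MYC were DDIT4, an inhibitor of mTORC1 signalling, at 1.98 ± 0.097, ATF5, and SLC7A5, a carrier of large neutral amino acids, at 1.38 ± 0.045. Among the falls, SLC7A11 was at -0.72 ± 0.12 in MYC and -1.37 ± 0.12 in Zab, and NUPR1 at -1.13 ± 0.15 in MYC. ASNS (-0.08 in MYC and -0.02 in Zab) and CHAC1 (0.23 and 0.07) were not called in either. The synthetases with the C/EBP-ATF element did not move as 1 group beside this list, with 2 higher and 5 lower of 8 in Zab. The direction of the 2 rests on the scaling. On the deposited scale AARS1 (-0.0012) was not called and MARS1 (-0.33) was called lower. Both still lay above the median of all genes there, which was -0.63.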

How the data were processed

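TT-seq was measured in 8 libraries, 2 in each of 4 groups. Per the file headers, the authors ran HOMER's analyzeRepeats to count tags on the opposite strand over the exons of hg19 RefSeq coding genes, condensed to 1 transcript per symbol in each library. Builds hg19 and dm6, STAR, bedtools 2.29.2, SAMtools 1.11 and Trim Galore 0.6.6 are listed in the submitters' processing notes, without roles. The deposited values are a signal: per the file headers raw tags, yet each equals whole reads times a factor for its library. The column headers hold the word spikein and dm6 is a listed build, but no source used here states how the factor was made. The deposited scale may thus be a spike-in scale (set by RNA added from outside), which would keep shifts of all genes that TMM removes. Dividing by the step gave whole reads for 99.96% to 100% of values within 0.02 reads. Low values were mostly even, 77.2% to 82.7% by library. Numbers of recovered reads, also those given to edgeR and DESeq2, can thus overstate the number of fragments.

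Deposited values were turned into CPM with TMM library sizes (edgeR 4.0.16), which removes that factor. Genes were kept with filterByExpr at a minimum of 10 reads, and log2(CPM + 1) was tested with limma 3.58.1 (trend, R 4.3.3) in 1 fit of 4 groups with 4 residual degrees of freedom, with a Benjamini-Hochberg adjusted p under 0.05 over 11985 genes. The pseudocount of 1 makes log2 changes of low genes smaller than they are. Ratios of means use CPM. The count test of edgeR and DESeq2 1.42.0 ran on recovered reads as alternatives, beside other scalings, filters, pseudocounts, left-out libraries and a replicate block. Depth was 1839960 to 4072059 reads, and SEs ran from 0.056 for GARS1 to 0.26 for CARS2. For 23 of the 37 genes all 8 libraries were counted on 1 shared transcript, and for 12 of the other 14 the exon length varied by under 10 percent. The exceptions were FARS2 (25.2 percent) and TARS1 (10.3 percent). TARS1 was counted over 2653 bases in both Zab libraries, 2926 in both MYC libraries, and 2926 and 2653 in WT. The part of this in the differences of TARS1, whose CPM are not corrected for length, was not tested. The fits were tested on simulated data.

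The genes and lists were chosen with earlier results of these data known. Library values of the groups compared are given for the 5 largest rises and falls in called genes that average 5 CPM or more, without overlap of the groups, in MYC over WT and Zab over WT, 3 each way in MYC over Zab and the interaction, and values in every library for AARS1, GARS1, EPRS1, WARS1, MARS1, HARS1, HARS2 and KARS1. For the other lists the rule took 3 called genes a comparison, and some genes that fell or were not called were added beside them. Some genes that these rules take are counted but not reported here by name.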

Additional observations from a re-analysis of the deposited data

Results flagged for a closer look

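The change of each gene with Zab was compared between libraries without and with MYC overexpression, as labelled. Limma's interaction term called 18 of the 37 genes, or 48.6%, where 53.3% of all genes tested were called, so the share was no higher than over all genes. Of the 18, 16 are given. The values below are log2 differences of MYC_Zab over MYC minus Zab over WT, followed by Zab over WT and MYC_Zab over MYC. Among 7 genes with a positive term, GARS1 differed by 0.80 (Zab over WT -0.43, MYC_Zab over MYC 0.36). The difference for CARS1 was 0.75, with -0.34 and then 0.41. TARS1 had 0.75, from -0.53 to 0.22. IARS2 differed by 0.63 (Zab over WT -0.65, MYC_Zab over MYC -0.02). The difference for EPRS1 was 0.57, with -0.56 and then 0.01. LARS1 had 0.48, from -0.39 to 0.09. QARS1 differed by 0.40 (Zab over WT 0.08, MYC_Zab over MYC 0.48).

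Among 9 genes with a negative term, CARS2 differed by -2.06 (Zab over WT 0.94, MYC_Zab over MYC -1.12). The difference for SARS2 was -1.49, with 0.81 and then -0.69. FARSA had -1.47, from 0.85 to -0.62. LARS2 differed by -1.03 (Zab over WT 0.33, MYC_Zab over MYC -0.70). The difference for WARS1 was -0.90, with 1.04 and then 0.14. VARS1 had -0.84, from 0.57 to -0.27. AARS1 differed by -0.72 (Zab over WT 0.60, MYC_Zab over MYC -0.12). The difference for YARS1 was -0.58, with 0.33 and then -0.25. KARS1 had -0.42, from -0.16 to -0.58. MYC was at the level of WT in the libraries labelled MYC_Zab, so an interaction cannot be told apart from that.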

How the results depend on the processing

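Of 2088 alternative values for 103 calls of a gene in a comparison, 173 kept their sign but lost their call, 70 of these when 1 library was left out. Leaving aside the deposited scale, 0 of 1985 changed sign. On the deposited scale 29 calls changed sign, and its counts of genes higher and lower were 29 and 0 in MYC over WT, 1 and 25 in Zab over WT, 36 and 0 in MYC over Zab, 7 and 0 in MYC_Zab over WT, 31 and 0 in MYC_Zab over Zab, 1 and 17 in MYC_Zab over MYC, and 17 and 7 in the interaction. The reversed log2 changes were, in MYC over WT, GARS1 0.14, LARS1 0.19, SARS1 0.18 and TARS1 0.10; in Zab over WT, AARS1 -0.0012, AARS2 -0.13, EARS2 -0.16, MARS1 -0.33, SARS1 -0.16, VARS1 -0.0312 and YARS1 -0.27. In MYC over Zab they were AARS1 0.47, AARS2 0.65, EARS2 0.75, MARS1 0.68, QARS1 0.50, SARS1 0.33, VARS1 0.73 and YARS1 0.87, in MYC_Zab over MYC MARS1 -0.0450, and in MYC_Zab over Zab AARS1 0.14, AARS2 0.47, CARS2 0.0177, EARS2 0.51, FARSA 0.11, MARS1 0.64, SARS1 0.35, VARS1 0.24 and YARS1 0.40. That scale keeps the authors' factor per library, so all genes shift together, by 0.27 in MYC_Zab over WT, 0.89 in MYC_Zab over Zab, -0.19 in MYC_Zab over MYC and 0.49 in the interaction. With library totals in place of TMM the counts moved by over 1.5 times in MYC over Zab (15 higher), MYC_Zab over Zab (14 higher and 7 lower) and the interaction (13 higher). Without a variance trend they were 5 higher in MYC over WT, 3 higher and 5 lower in MYC_Zab over MYC, 5 higher in MYC_Zab over Zab and 5 higher in the interaction. With the pairs of WT and of MYC_Zab libraries as 1 sample each they were 5 higher in MYC over WT, and 3 higher and 6 lower in MYC_Zab over MYC. Among the 23 genes with the same transcript throughout, fewer could be called: 5 higher and 2 lower in MYC over WT, 1 higher in MYC_Zab over MYC, 5 higher in MYC_Zab over Zab and 3 higher in the interaction. Leaving out 1 library at a time gave 5 to 9 higher and 5 to 8 lower in MYC over WT, 9 to 11 and 10 to 13 in Zab over WT, 8 to 11 and 7 to 10 in MYC over Zab, 0 and 0 in MYC_Zab over WT, 6 to 9 and 9 to 12 in MYC_Zab over Zab, 4 to 7 and 6 to 12 in MYC_Zab over MYC, and 7 to 9 and 9 to 12 in the interaction. The replicate numbers share only a name, with correlations of same-numbered libraries from -0.0438 to 0.00173. A fit with the replicate block called 8 up and 6 down in MYC over WT, 11 and 12 in Zab over WT, 8 and 9 in MYC over Zab, 0 and 0 in MYC_Zab over WT, 9 and 12 in MYC_Zab over Zab, 7 and 10 in MYC_Zab over MYC, and 8 and 11 in the interaction, and lost none of the 103 calls. Alternatives chosen after seeing the data left the MYC_Zab libraries out of the fit, with 8 higher and 6 lower in MYC over WT and 11 and 12 in Zab over WT. The causes were not tested beyond the construction of each alternative, and depth limits the mitochondrial genes most, with as few as 28 reads for WARS2 in a library.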
